A study of Mus musculus with 6 samples.

Results

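The cytosolic ribosomal protein genes encode the proteins of the 2 ribosomal subunits, and their transcripts were followed here in cardiac fibroblasts isolated after myocardial infarction (MI). Genes were taken by name (*Rpl* or *Rps* with a number, with *Rplp0*, *Rplp1*, *Rplp2* and *Rpsa*, leaving out names ending in -ps) and by a summed count of at least 60 over the 6 libraries. Of the 34745 genes listed, 82 matched the name and 79 reached the count: 44 of the 60S subunit, 3 of its P-stalk and 32 of the 40S subunit. The other 3 rows were *Rpl10l* with 0 counts, *Rpl3l* with 2 and *Rpl39l* with 29. All 79 genes passed the expression filter of the test, which left 14084 genes.

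The study compared KDM5B-KO mice, in which the CRISPR/Cas9 system removed the part of *Kdm5b* that holds the JmjC domain, with littermate wild-type (WT) C57BL/6 mice. KDM5B is a demethylase of histone H3 lysine 4. The mice were male, 8 to 10 weeks old, and all of them, WT included, had an MI set by tying off the left anterior descending artery, and the fibroblasts were isolated from the left ventricle on Day 7. RNA-seq was performed on 3 KO and 3 WT libraries. The deletion was present in the whole animal, there was no library from mice without MI, and the labels do not say whether each library came from a separate mouse, so the p-values measure the spread between these libraries, which may be technical.

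Each ribosome is built from 1 copy of most of these proteins on a scaffold of ribosomal RNA, with the decoding site in the small 40S subunit and the peptide bond formed in the large 60S subunit. The transcripts of ribosomal protein genes are among the most abundant in most cells, and many begin with a run of pyrimidines (the TOP start) through which mTOR and LARP1 control their translation. Mammalian genomes also carry many processed copies of these genes, which differ from the parent by few bases.

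Between 12025403 and 15329427 fragments or reads were counted per library. *Kdm5b*, read first as a check of the labels, had 98.1, 107 and 105 CPM (counts scaled to a common library size, after TMM) in the KO libraries and 108, 129 and 123 CPM in the WT libraries. All KO values lay below all WT values, but the change of -0.22 on the log2 scale (standard error 0.07) missed the threshold of edgeR with an adjusted p of 0.0574. The deletion removes only part of the gene, so a count over the whole gene cannot decide whether the labels hold. By Q-PCR and immunoblot, the paper found KDM5B nearly absent from cardiac fibroblasts of KO mice. KO and WT stand below for the libraries so labelled. The fibroblast markers were expressed in every library, with summed CPM of 22117 to 25640 in KO and 29950 to 32231 in WT, and all 9 were lower in KO. The 8 endothelial markers were all higher, summing to 1245 to 1821 CPM in KO and 229 to 238 CPM in WT. Cardiomyocyte markers summed to 607 to 671 CPM in KO and 834 to 838 CPM in WT (6 of 8 lower), mural cell markers to 167 to 213 and 237 to 270 CPM (1 of 5 tested higher, 2 lower), macrophage markers to 393 to 420 and 420 to 451 CPM (1 of 8 higher, 4 lower), and neutrophil markers to 7.16 to 10.3 and 2.76 to 3.74 CPM (2 of 3 tested higher). None of the 6 lymphocyte and 6 erythroid markers exceeded 3 counts in any library, and *Cd3e*, *Cd3g*, *Nkg7* and *Hbb-bt* were among those at 0. The part of these cell types in the results below was not tested, and in bulk samples fewer cells of a type and less RNA per cell cannot be told apart.

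Ribosomal protein genes were lower in the KO libraries as a small shift shared by most of them. Of 79 genes, 31 fell and 1, *Rps28*, rose (edgeR, adjusted p under 0.05), where 30.2% of all genes tested were called, 12.5% lower and 17.7% higher. The median log2 fold change was -0.20, with the middle 50% of genes between -0.27 and -0.11, against a median of -0.015 over all genes tested. The fitted change was below 0 in 71 genes (52.3% of all genes tested) and above 0 in 8. No gene changed by more than 1 on the log2 scale, and the extremes were -0.53 for *Rpl29* and 0.29 for *Rpl22*. In 44 genes every KO library lay below every WT library and in 1 every KO library lay above, where the groups did not overlap in either direction for 47% of all genes tested and KO lay below in 22.4%. These directions depend on the scaling: scaled so that cardiomyocyte and macrophage markers were level, the median of all genes rose by 0.38 and that of the ribosomal protein genes was 0.18, with 36 genes called higher and 1 lower, where 58.5% of all genes tested were called higher and 0.426% lower. The difference between the 2 medians was -0.18 under TMM and -0.19 under marker scaling, and 68 of the 79 genes lay below the median of all genes under both, values that a change of scaling leaves nearly as they are by its construction.

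**Figure D1:**
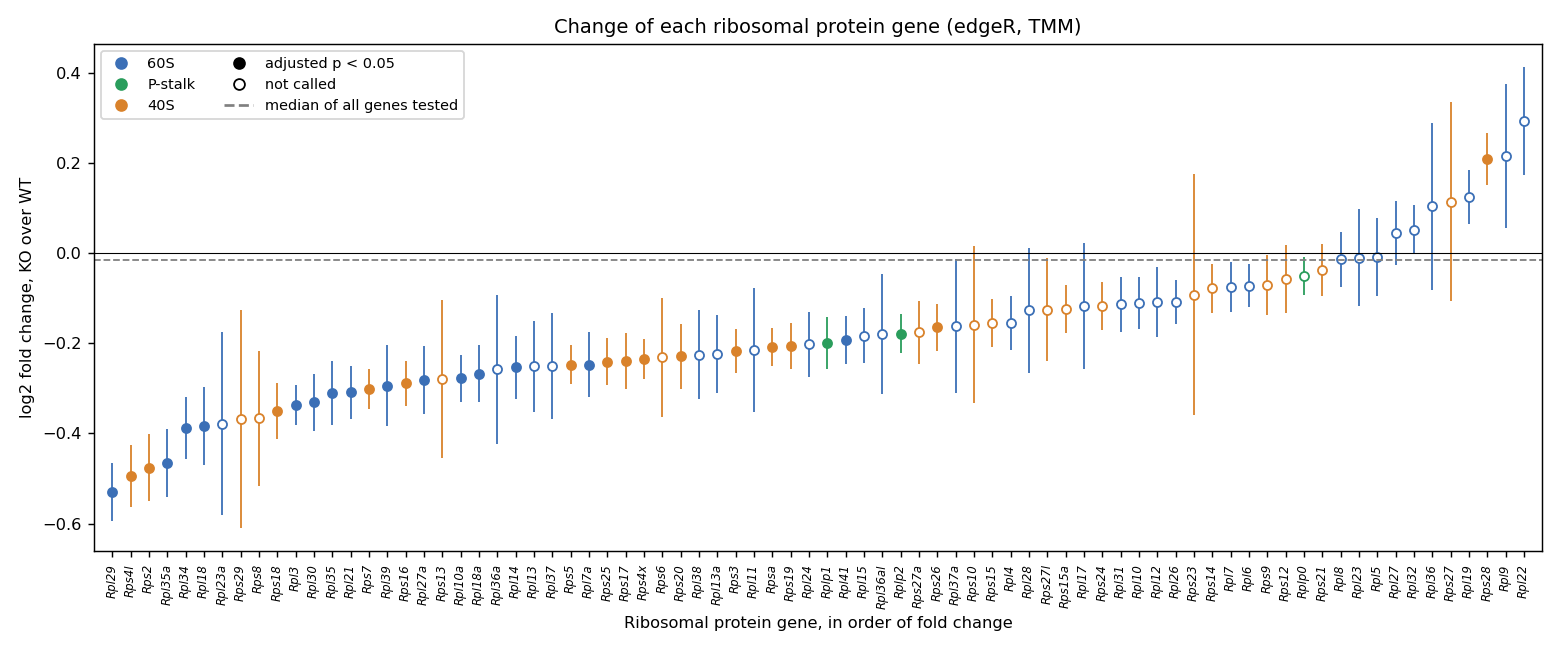
Log2 fold change of KO over WT (y axis, edgeR with TMM) for 78 of the 79 ribosomal protein genes in order of change (x axis), with standard errors as bars, colours for the subunits and filled points for an adjusted p under 0.05. The points slope from -0.53 to 0.29, and 70 lie below 0 under TMM, whereas under marker scaling the median gene lies at 0.18.

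The shift was present in each KO library. Relative to the mean of the WT libraries, the median ribosomal protein gene stood at -0.20, -0.13 and -0.22 on the log2(CPM + 0.5) scale in KO replicates 1 to 3, and at 0.03, 0.00 and -0.03 in WT replicates 1 to 3. In these KO libraries 67, 63 and 73 of the 79 genes were below the WT mean, and in the WT libraries 28, 38 and 59 were. KO replicate 2 was closest to the WT libraries and KO replicate 3 farthest. Without KO replicate 3 the count of lower genes was 18 in place of 31, and the median was -0.16. The share of all genes tested that were called lower dropped as well, to 7.92% in place of 12.5%.

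**Figure D2:**
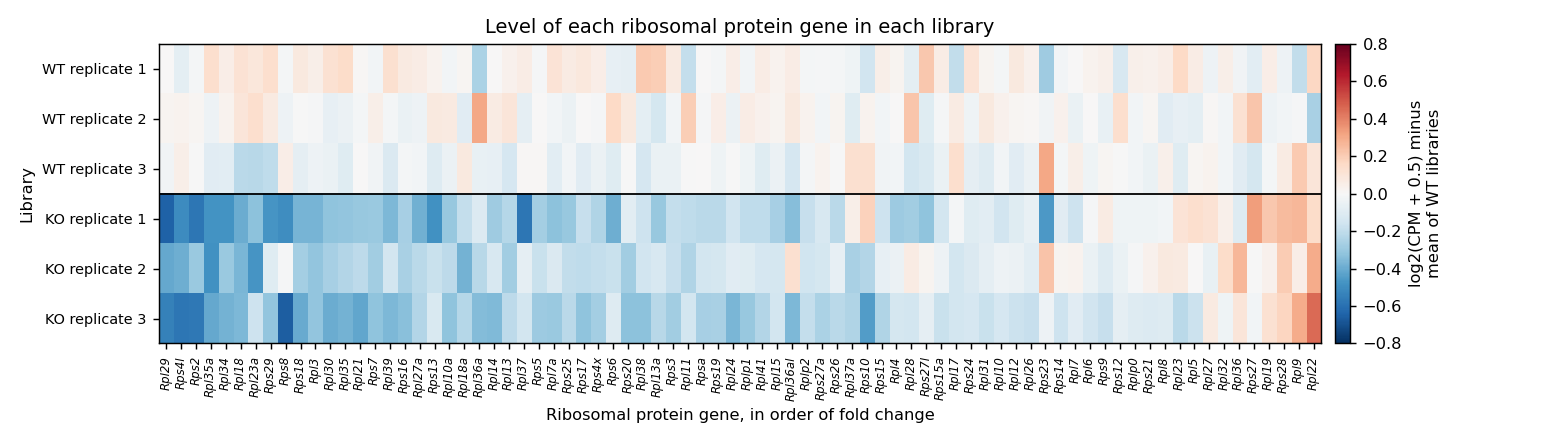
Level of 78 of the 79 ribosomal protein genes (x axis, in order of fold change) in the 6 libraries (rows) as log2(CPM + 0.5) minus the mean of the WT libraries, with red for higher and blue for lower. Blue predominates in the 3 KO rows, where 67, 63 and 73 of all 79 genes were below the WT mean under TMM, a direction that marker scaling turns for the median gene.

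Ribosomal protein genes took 2.10%, 2.19% and 2.03% of all counts in KO replicates 1 to 3 and 2.40%, 2.30% and 2.28% in WT replicates 1 to 3. The groups did not overlap, and the KO share was 0.906 times the WT share. The mean share was 2.11% ± 0.0805 (SD, n = 3) in KO and 2.33% ± 0.0651 (SD, n = 3) in WT, with p = 0.1 by exact permutation, two-sided, below which 3 against 3 cannot go. The 40S genes took 0.906% ± 0.0395 (SD, n = 3) and 1.02% ± 0.0249 (SD, n = 3) of all counts, and the 60S genes with the P-stalk took 1.19%, 1.25% and 1.17% in KO and 1.35%, 1.28% and 1.28% in WT. Both subunits were therefore lower in KO, with a ratio of 0.886 for 40S and 0.922 for 60S. Of the counts on ribosomal protein genes, the 40S genes held 43.5%, 42.9% and 42.5% in KO and 43.7%, 44.3% and 43.9% in WT, again without overlap (exact permutation p = 0.1). Summed by FPKM, which divides each count by gene length and library total, the share was 4.88% ± 0.195 (SD, n = 3) in KO and 5.50% ± 0.0888 (SD, n = 3) in WT.

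**Figure D3:**
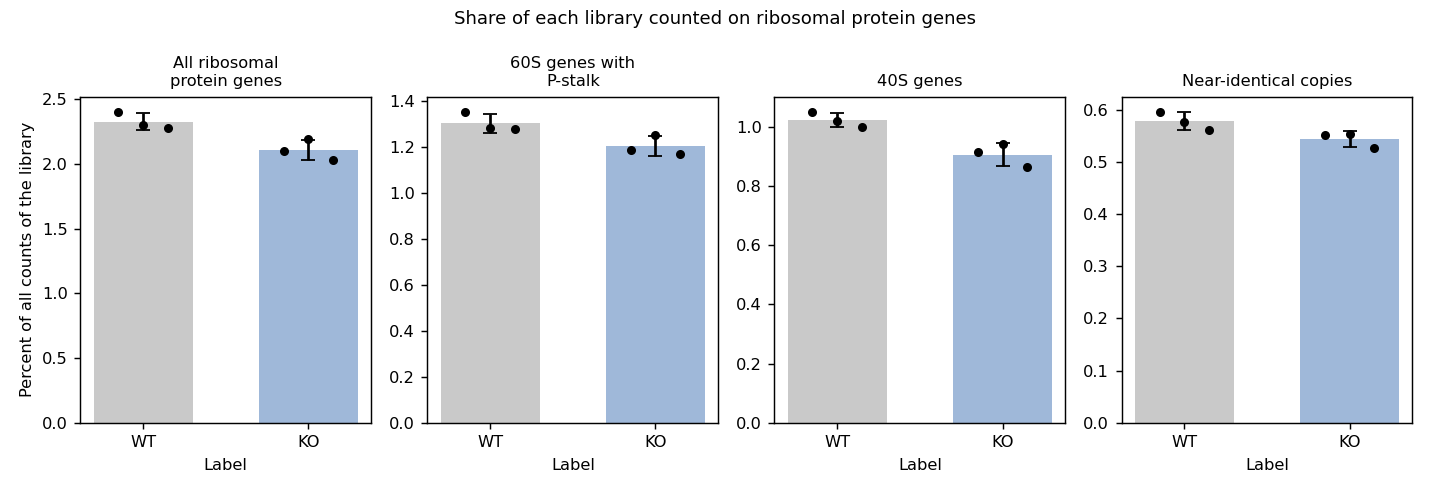
Percent of all counts of a library (y axis, from 0) on ribosomal protein genes, on each subunit and on near-identical copies of these genes, for libraries labelled WT and KO, with bars for the mean, error bars for the SD of 3 libraries and points for the libraries. Each panel shows all 3 KO libraries below all 3 WT libraries, as in the first panel with 2.03% to 2.19% against 2.28% to 2.40%.

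Per length, the ribosomal protein genes ran from 0.469 to 1667 FPKM, with a median of 56.8 FPKM. Among the 5 genes with the highest mean FPKM were *Rplp1* with 1667 FPKM, *Rpl8* with 1087, *Rpl4* with 985 and *Rpl13a* with 848. The 17 genes under 10 FPKM included *Rps13* with 0.469 FPKM, *Rpl9* with 0.576 and *Rps27* with 0.931, each of which encodes a core protein of the ribosome. The gene length implied by the FPKM values had a median of 2477 bases, whereas the principal transcripts, found for all genes but *Rps4l*, had a median of 751 bases. Genes under 10 FPKM had a median of 7 near-identical genes elsewhere in the genome, those from 10 to 100 FPKM had 5 and those above 100 FPKM had 3. In these classes 2 of 17 (11.8%), 14 of 32 (43.8%) and 15 of 30 (50%) genes fell, so that the class under 10 FPKM was near the 12.5% of all genes tested, while the class medians of the log2 fold change were -0.21, -0.18 and -0.20.

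In the 60S subunit outside the P-stalk, 15 of 44 genes fell (34.1%, against 12.5% of all genes tested) and 0 rose by edgeR (against 17.7%), with a median of -0.20. DESeq2 and limma called 0 of these genes higher as well, and 1, *Rpl22*, was higher at an unadjusted p under 0.05. *Rpl29*, which encodes a heparin-binding protein of the large subunit, had 188, 223 and 203 CPM in KO and 296, 300 and 290 CPM in WT. Every KO library was far below every WT library, and its change of -0.53 (log2, standard error 0.06, adjusted p = 6.0e-04 by edgeR) was the lowest of the 79 genes. Among the 10 largest falls it was the one with an adjusted p under 0.05 in every alternative fit, marker scaling included (highest adjusted p = 0.0481 by edgeR, DESeq2 or limma).

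*Rpl35a* (eL33), one of the genes mutated in Diamond-Blackfan anemia, had 37.2, 37.0 and 39.0 CPM in KO and 57.1, 50.5 and 48.7 CPM in WT. The KO values were tightly grouped and below all WT values (log2 fold change -0.47, standard error 0.08, adjusted p = 0.00273 by edgeR). *Rpl34* had 54.0, 61.3 and 58.0 CPM in KO and 78.3, 77.2 and 71.3 CPM in WT, a log2 fold change of -0.39 (adjusted p = 0.00368 by edgeR). *Rpl18* had 137, 140 and 142 CPM in KO and 197, 194 and 156 CPM in WT, a log2 fold change of -0.38 (adjusted p = 0.0115 by edgeR). The groups were apart for both genes, although WT replicate 3 of *Rpl18* lay nearer to the KO libraries than to the other 2 WT libraries. *Rpl18* shares its locus with *Sphk2* on the other strand, and *Sphk2* had a log2 fold change of -0.03.

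*Rpl3*, whose protein reaches towards the peptidyl transferase center, had 264, 274 and 274 CPM in KO and 353, 340 and 332 CPM in WT (log2 fold change -0.34, standard error 0.04, adjusted p = 9.5e-04 by edgeR). *Rpl30* had 186, 193 and 177 CPM in KO and 253, 222 and 224 CPM in WT (log2 fold change -0.33, adjusted p = 0.00584 by edgeR). *Rpl35*, whose protein lies near the exit of the peptide tunnel, had 203, 215 and 195 CPM in KO and 280, 244 and 236 CPM in WT (log2 fold change -0.31, adjusted p = 0.0134 by edgeR). In each of these 3 genes the KO libraries were lower without overlap under TMM, but the fitted change was above 0 under marker scaling, and *Rpl35* missed the threshold without KO replicate 3 (adjusted p = 0.0551 by edgeR). The locus of *Rpl3* overlaps *Syngr1*, and that of *Rpl35* overlaps *Arpc5l* and *Wdr38*, all on the other strand. Near-identical copies held 45.3% of the counts of *Rpl35* and its copies.

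Outside the P-stalk, the 2 60S genes with the highest mean FPKM did not pass the test. Per kilobase of the principal transcript, however, *Rpl41* (1077 CPM) lay between these 2, *Rpl8* (1102) and *Rpl4* (913). *Rpl41* fell under TMM (log2 fold change -0.19, adjusted p = 0.0280 by edgeR). *Rpl8*, which encodes the protein uL2 beside the peptidyl transferase center, had 929, 996 and 876 CPM in KO and 975, 884 and 968 CPM in WT, and the groups overlapped (log2 fold change -0.01, standard error 0.06, adjusted p = 0.889 by edgeR). *Rpl4* had 1211, 1432 and 1343 CPM in KO and 1504, 1479 and 1453 CPM in WT (log2 fold change -0.15, adjusted p = 0.0922 by edgeR). All KO values of *Rpl4* were below the WT values, with KO replicate 1 the lowest. *Rpl22*, which had the highest fitted change at 0.29, had 108, 120 and 134 CPM in KO and 109, 81.2 and 104 CPM in WT, so the groups overlapped and the change missed the threshold (adjusted p = 0.0998 by edgeR).

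The P-stalk recruits and activates the GTPase factors of translation, and 2 of its 3 genes fell, where 12.5% of all genes tested fell. Its base *Rplp0* had 1855, 1889 and 1772 CPM in KO and 1961, 1877 and 1872 CPM in WT, with overlap and no call (log2 fold change -0.05, adjusted p = 0.413 by edgeR). *Rplp1* had 767, 827 and 716 CPM in KO and 869, 919 and 863 CPM in WT (log2 fold change -0.20, adjusted p = 0.0346 by edgeR). *Rplp2* had 178, 182 and 177 CPM in KO and 200, 207 and 201 CPM in WT (log2 fold change -0.18, adjusted p = 0.0153 by edgeR). The genes of the 2 acidic proteins P1 and P2, which bind P0 as pairs, were lower in every KO library under TMM, and both changes turned to a rise under marker scaling. The call of *Rplp1* was lost in 8 alternatives, among them 5 of the 6 that left out a library (adjusted p from 0.0655 to 0.117 by edgeR, all but the one without KO replicate 2), and that of *Rplp2* without KO replicate 3 (0.0568) or WT replicate 2 (0.0639).

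In the 40S subunit, 14 of 32 genes fell (43.8%, against 12.5% of all genes tested), 1, *Rps28*, rose (against 17.7%), and the median was -0.21. *Rps2*, whose protein uS5 lies at the entry of the mRNA channel, had 592, 720 and 596 CPM in KO and 876, 894 and 882 CPM in WT. KO replicate 2 was highest among the KO libraries and still below every WT library (log2 fold change -0.48, standard error 0.07, adjusted p = 0.00219 by edgeR). The locus of *Rps2* overlaps *Snhg9* on the other strand. *Rps18*, whose protein uS13 sits in the head of the subunit, had 70.8, 76.1 and 69.4 CPM in KO and 96.8, 91.8 and 87.2 CPM in WT (log2 fold change -0.35, adjusted p = 0.00418 by edgeR). *Rps18* overlaps *Vps52* on the other strand, which rose with a log2 fold change of 0.41, and whether counting used strand is not given in the sources used here.

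*Rps28*, which encodes the small protein eS28 near the exit of the mRNA channel, had 72.3, 69.9 and 68.5 CPM in KO and 58.9, 59.6 and 63.6 CPM in WT. All KO values were above all WT values (log2 fold change 0.21, standard error 0.06, adjusted p = 0.026 by edgeR), yet the call was lost in 6 alternatives, among them without KO replicate 1 (adjusted p = 0.0602), WT replicate 1 (0.0895) or WT replicate 2 (0.0932). Its locus overlaps *Kank3* on the other strand, which had 21.5, 19.1 and 22.4 CPM in KO and 4.41, 5.87 and 5.62 CPM in WT, a log2 fold change of 1.99. Reads of the 2 genes cannot be told apart if they were counted without strand. *Rps28* (chr17:33819027-33824562, mm10) lies 127 kb from *Rps18* (chr17:33951999-33956001), and the 2 genes moved in opposite directions under TMM, whereas both were above 0 under marker scaling or with the copies of *Rps18* counted with it.

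Several ribosomal proteins have known roles outside the ribosome. *Rpsa*, also known as the 67 kDa laminin receptor, had 1389, 1460 and 1344 CPM in KO and 1619, 1606 and 1618 CPM in WT (log2 fold change -0.21, adjusted p = 0.00757 by edgeR). *Rps3*, a protein with a role in DNA repair and NF-κB signaling, had 780, 784 and 735 CPM in KO and 936, 877 and 859 CPM in WT (log2 fold change -0.22, adjusted p = 0.0116 by edgeR). *Rps19*, the gene most often mutated in Diamond-Blackfan anemia, had 166, 174 and 160 CPM in KO and 190, 199 and 188 CPM in WT (log2 fold change -0.21, adjusted p = 0.0175 by edgeR). All 3 were lower in every KO library under TMM and above 0 under marker scaling, and without KO replicate 3 *Rps3* (adjusted p = 0.0505 by edgeR) and *Rps19* (0.0688) lost their call, *Rps19* also without WT replicate 2 (0.0692).

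*Rpl5* and *Rpl11*, whose proteins join 5S RNA and bind MDM2 when ribosome assembly is disturbed, did not pass the test, with log2 fold changes of -0.01 and -0.21 (adjusted p = 0.954 and 0.274 by edgeR). *Rps6*, the phosphorylation target of S6 kinase, was at 8.27 to 10.2 CPM in KO and 10.2 to 12.4 CPM in WT (log2 fold change -0.23, adjusted p = 0.222 by edgeR). *Rps27a*, which is made as a fusion with ubiquitin, was at 28.2 to 30.7 CPM in KO and 33.1 to 34.3 CPM in WT (log2 fold change -0.18, adjusted p = 0.092 by edgeR). *Rpl13a*, known for translational silencing in the interferon response of myeloid cells, was at 756 to 852 CPM in KO and 844 to 1069 CPM in WT (log2 fold change -0.22, adjusted p = 0.0889 by edgeR). Of these 5 genes, none was past the threshold, and *Rpl5* and *Rpl11* had few counts on the gene itself, as shown with the copies.

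Some ribosomal protein genes have a paralog with a narrower pattern. *Rps4l*, an autosomal paralog of the X-linked *Rps4x*, had 45.7, 49.3 and 43.3 CPM in KO and 61.5, 66.1 and 67.1 CPM in WT (log2 fold change -0.49, standard error 0.07, adjusted p = 0.00134 by edgeR). *Rps4x* had 702, 725 and 687 CPM in KO and 860, 824 and 803 CPM in WT (log2 fold change -0.23, adjusted p = 0.00504 by edgeR). Both were lower in all KO libraries. No protein-coding transcript of *Rps4l* was found in the GENCODE annotation, so it was not searched for copies. *Rps4l* lies within *Tmtc1* on the other strand, which had 3.85 to 4.96 CPM in KO and 6.23 to 6.62 CPM in WT and fell with a log2 fold change of -0.58.

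*Rpl39*, which lines the peptide tunnel, had 36.0, 41.8 and 36.0 CPM in KO and 50.8, 46.0 and 42.8 CPM in WT (log2 fold change -0.29, adjusted p = 0.0406 by edgeR), a call that was lost in 8 alternatives, among them without KO replicate 1 (0.113), KO replicate 3 (0.130), WT replicate 1 (0.128) or WT replicate 2 (0.0882). Its testis paralog *Rpl39l* had 2, 2 and 6 counts in KO and 8, 4 and 7 counts in WT and was not tested. The striated muscle paralog *Rpl3l* had 2 counts, both in KO replicate 1, and the testis paralog *Rpl10l* had 0 in all libraries, where a count of 0 allows up to 3 counts, or 0.249 CPM in the smallest library. *Rps27l*, a p53 target, had 71.2 to 90.3 CPM in KO and 81.8 to 104 CPM in WT (log2 fold change -0.12), and its partner *Rps27* had a log2 fold change of 0.12 at 2.28 to 3.36 CPM. *Rpl36al* and *Rpl36a* had log2 fold changes of -0.18 and -0.26, and *Rpl10* of -0.11. None of these 5 passed the test (adjusted p from 0.191 to 0.726 by edgeR).

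Some core ribosomal genes carry names outside the rule. *Rps3a1* (eS1) had 419, 420 and 413 CPM in KO and 502, 488 and 470 CPM in WT (log2 fold change -0.22, adjusted p = 0.00516 by edgeR). It was lower in each KO library. *Gnb2l1*, the older symbol of the scaffold gene *Rack1*, had 1357, 1158 and 1054 CPM in KO and 1673, 1336 and 1325 CPM in WT, with overlap (log2 fold change -0.28, adjusted p = 0.0987 by edgeR). *Fau*, the fusion that gives eS30, had a log2 fold change of 0.06 (adjusted p = 0.554 by edgeR).

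Near-identical copies took a large part of the counts of some genes. A copy was any other gene of the GENCODE annotation whose transcript matched at least 95% of the bases of a ribosomal protein coding sequence over at least 90% of its length. There were 555 such genes, of which 49 had a row in the table and 47 had counts. After *Wdr89* and *Flt3l*, which are annotated as other protein-coding genes, were left out, 45 copies had counts and 30 were tested. Copies held 99.0% of the counts of *Rpl23a* and its copies, 98.6% for *Rps27*, 97.3% for *Rpl9*, 96.0% for *Rpl12*, 94.1% for *Rpl11* and 93.9% for *Rpl5*. For *Rpl5*, the gene itself had 4703 counts over the 6 libraries and *Gm15500*, annotated as a processed pseudogene and identical over the coding sequence, had 72654. How the reads of such a pair split between gene and copy is uncertain.

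**Figure D4:**
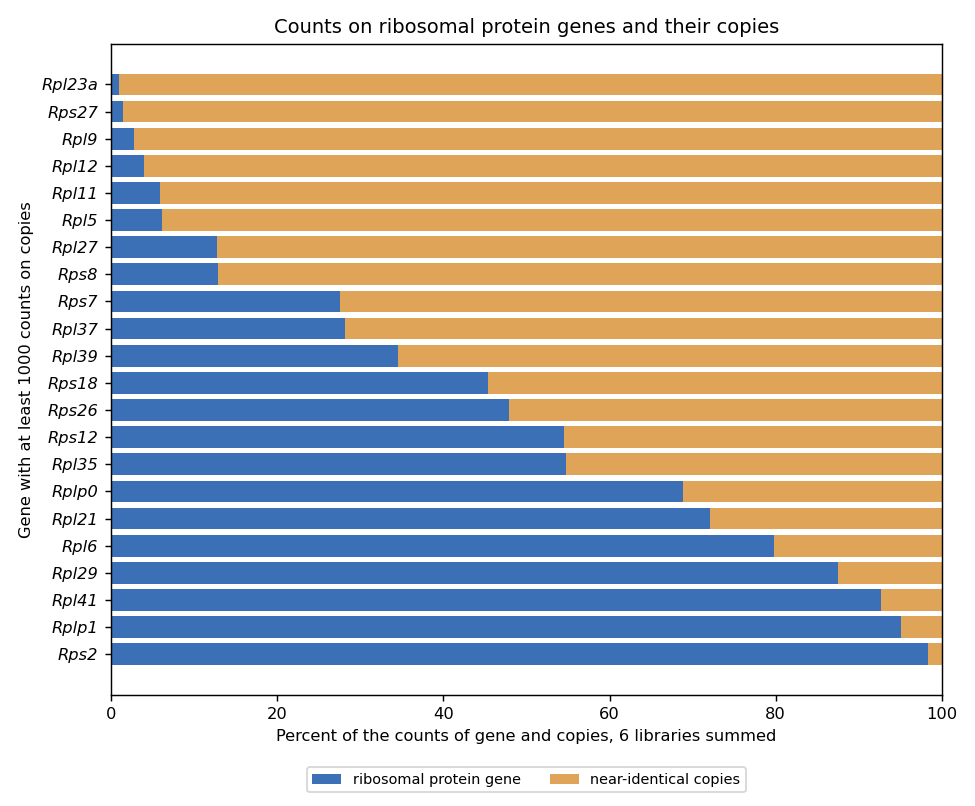
Percent of the counts of a ribosomal protein gene and its near-identical copies, 6 libraries summed (x axis), that lay on the gene (blue) and on its copies (orange), for the genes with at least 1000 counts on copies (y axis). Copies held 99.0% for *Rpl23a*, 98.6% for *Rps27* and 97.3% for *Rpl9* and 1.6% for *Rps2*.

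Of the 30 copies tested, 10 fell (33.3%), 3 rose (10.0%), against 12.5% and 17.7% of all genes tested, and 24 had a fitted change below 0, with a median of -0.17. *Rps27rt*, identical to *Rps27* over the coding sequence, had 177, 179 and 171 CPM in KO and 208, 197 and 193 CPM in WT (log2 fold change -0.18, adjusted p = 0.0233 by edgeR). *Gm10275*, identical to *Rpl12*, had 671, 673 and 631 CPM in KO and 760, 758 and 732 CPM in WT (log2 fold change -0.19, adjusted p = 0.0128 by edgeR). Both copies fell, and the parents did not pass the test. The call of *Gm10275* was lost without KO replicate 3 (adjusted p = 0.0533 by edgeR) or WT replicate 2 (0.0517), and that of *Rps27rt* without KO replicate 3 (0.0891), WT replicate 1 (0.0788) or WT replicate 2 (0.0580). With the counts of the copies added to the parent, a step chosen after seeing the data, 35 genes fell and 2 rose, and 30 of the 31 falls were shared. *Rps27* moved from 0.12 to -0.18 (adjusted p = 0.0251 by edgeR), *Rpl12* from -0.11 to -0.19 (adjusted p = 0.014), and *Rpl11* from -0.21 to -0.28 (adjusted p = 0.0404). Copies took 0.552%, 0.553% and 0.527% of all counts in KO and 0.595%, 0.577% and 0.561% in WT, lower in KO without overlap. Of the counts on ribosomal protein genes and copies together, the copies held 20.5% ± 0.349 (SD, n = 3) in KO and 19.9% ± 0.156 (SD, n = 3) in WT (exact permutation p = 0.1).

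The 3 copies that rose belong to *Rps18* and *Rps2*, which both fell. *Gm10260*, a copy of *Rps18* on chromosome 13, had 147, 124 and 138 CPM in KO and 60.9, 51.1 and 47.8 CPM in WT (log2 fold change 1.35, standard error 0.10, adjusted p = 5.0e-05 by edgeR). *Rps18-ps3*, a copy on chromosome 8, had 8.11, 6.38 and 7.48 CPM in KO and 2.73, 2.80 and 3.98 CPM in WT (log2 fold change 1.21, adjusted p = 0.00242 by edgeR). *Rps2-ps10* had 15.4, 12.6 and 14.1 CPM in KO and 7.56, 7.17 and 7.11 CPM in WT (log2 fold change 0.95, adjusted p = 7.4e-04 by edgeR). Every KO library was above every WT library in all 3. The log2 ratio of copy to parent differed between KO and WT by 1.71 for *Gm10260*, 1.57 for *Rps18-ps3* and 1.43 for *Rps2-ps10* (exact permutation p = 0.1 each), and these were the only 3 of the 30 ratios that differed by more than 1. Added together, *Rps18* and its copies rose with a log2 fold change of 0.54 (adjusted p = 6.1e-04 by edgeR), so the fall of *Rps18* turns into a rise when the copies are counted with it.

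The coding sequences of *Rps18* and its copies are shown because only few bases tell them apart. Counted from the first base of the *Rps18* coding sequence in the GENCODE transcript, *Gm10260* carried the substitutions T186C, A337C, G371A and G431A and *Rps18-ps3* carried G181C, A337C and C430T, with the *Rps18* base first. Bases 321 to 440 follow, with capitals in *Rps18* for each base that differs in a copy and capitals in the copies for the differing base.
Rps18: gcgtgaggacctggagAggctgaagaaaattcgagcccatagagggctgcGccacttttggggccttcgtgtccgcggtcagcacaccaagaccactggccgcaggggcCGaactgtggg
Gm10260: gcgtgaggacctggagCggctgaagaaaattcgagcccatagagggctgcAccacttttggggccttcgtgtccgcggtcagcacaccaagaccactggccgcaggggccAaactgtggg
Rps18-ps3: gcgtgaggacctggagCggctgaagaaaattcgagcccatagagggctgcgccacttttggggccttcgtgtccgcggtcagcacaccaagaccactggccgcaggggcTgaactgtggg
Both copies share the change A337C, and the other changes belong to 1 copy each.

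**Figure D5:**
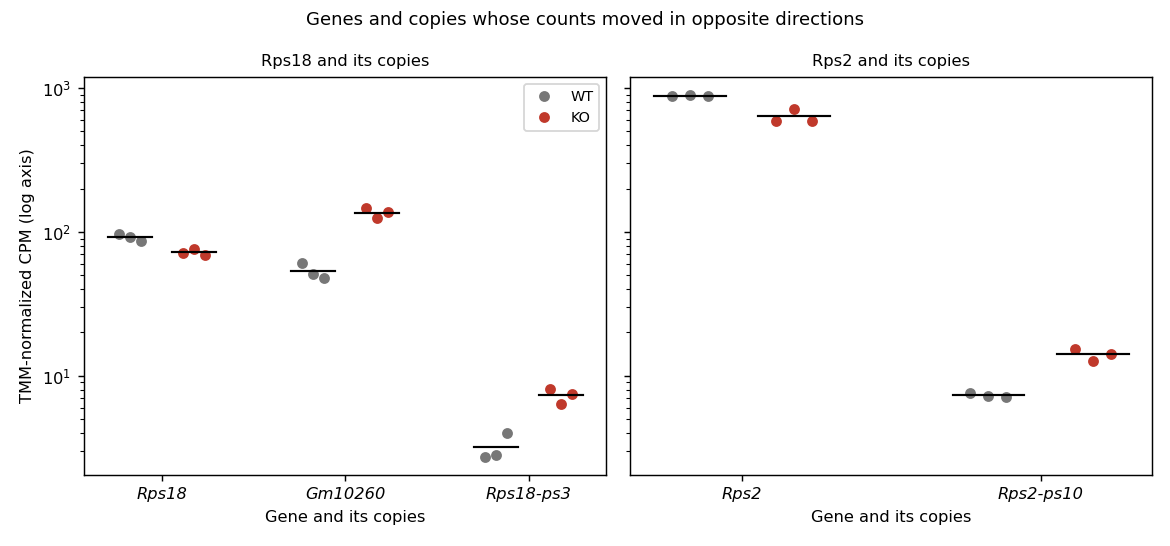
TMM-normalized CPM (y axis, log scale) of *Rps18*, *Rps2* and the copies that rose (x axis), with points for the 3 WT (grey) and 3 KO (red) libraries and lines for their means. *Rps18* and *Rps2* are lower in KO, whereas *Gm10260* (147, 124 and 138 against 60.9, 51.1 and 47.8 CPM), *Rps18-ps3* and *Rps2-ps10* are higher. Under marker scaling the fitted change of *Rps18* is 0.029.

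The windows around the annotated starts were read for the pyrimidine run of a TOP start. Where a gene had several annotated starts, the one with the longest run was taken, for ribosomal protein genes (69 starts) and all promoters alike. The runs are therefore the longest of each gene. Promoter windows were found for 58 of the 79 genes in RefSeq (GRCm38.p6), and a run of at least 8 C or T on the sense strand within 15 bases of the start was present in 26 of them (44.8%), against 13.9% of all 27025 promoters. The run was present in 11 of the 21 matched genes that fell and in 15 of the 37 that did not. The windows of 4 genes that fell and of *Rps28* are shown as examples of long and short runs, each 30 bases with 15 before the annotated start, in the coordinates of GRCm38.p6 and with the longest run in capitals.
Rpl34 (chr3:130730323-130730352, minus strand): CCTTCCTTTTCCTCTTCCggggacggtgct
Rpl35a (chr16:33056467-33056496, plus strand): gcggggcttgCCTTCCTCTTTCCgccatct
Rpl35 (chr2:39005117-39005146, minus strand): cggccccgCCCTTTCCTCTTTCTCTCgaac
Rps2 (chr17:24720048-24720077, plus strand): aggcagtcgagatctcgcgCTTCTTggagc
Rps28 (chr17:33824548-33824577, minus strand): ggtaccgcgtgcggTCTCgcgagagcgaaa
*Rpl34* and *Rpl35* hold runs of 18 bases, *Rpl35a* of 13, *Rps2* of 6 and *Rps28* of 4. Within the whole 300-base windows, CTTCCG or its reverse complement CGGAAG, which holds the core of ETS sites, was present in 40 of 58 (69.0%), against 17.1% of all promoters. These matches are descriptions of the letters in the windows.

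The shift was next set beside other genes of translation, taken as lists and read against the 12.5% of all genes tested that fell and the 17.7% that rose. Among 11 elongation factors 2 fell (18.2%) and 0 rose by edgeR, DESeq2 or limma or at an unadjusted p under 0.05, with a median of -0.10. *Eef1a1*, which brings aminoacyl-tRNA to the ribosome, had 7306, 7855 and 7268 CPM in KO and 8772, 8564 and 8081 CPM in WT (log2 fold change -0.18, adjusted p = 0.0274 by edgeR). *Eef2*, the translocase, had 3985, 4278 and 4067 CPM in KO and 4383, 4592 and 4548 CPM in WT (log2 fold change -0.13, adjusted p = 0.0495 by edgeR). Both were lower in each KO library, but *Eef1a1* lost its call without KO replicate 1 (adjusted p = 0.0514 by edgeR), KO replicate 3 (0.0980), WT replicate 1 (0.0797) or WT replicate 2 (0.0918). *Eef2* lost its call without any 1 library but KO replicate 2 (adjusted p from 0.0556 to 0.160 by edgeR) and with DESeq2 (0.0600) and limma (up to 0.143). Under marker scaling the fitted changes of *Eef1a1* and *Eef2* were 0.20 and 0.25.

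Among 37 initiation factors 5 fell (13.5%) and 3 rose (8.11%), with a median of -0.05, a share of falls near the 12.5% of all genes and a share of rises below the 17.7%. The largest fall was that of *Eif3f* (log2 fold change -0.25, adjusted p = 0.00501 by edgeR), a subunit of the factor that scaffolds the 43S complex, and the largest rise that of *Eif2b2* (0.28, adjusted p = 0.037), a subunit of the exchange factor of eIF2, whose call was lost without any 1 library but KO replicate 3 (adjusted p from 0.0540 to 0.112 by edgeR). Of 17 other genes known for a TOP start, 4 fell (23.5%, *Eif3f*, *Tpt1*, *Eef1a1* and *Eef2*, the last 3 not called in several alternatives), 0 rose by edgeR, DESeq2 or limma or at an unadjusted p under 0.05, and the median was -0.10. Under marker scaling 8, 33 and 15 genes of these 3 lists were called higher and 0 lower by edgeR, where 58.5% of all genes tested were called higher.

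Of 68 factors that assemble the ribosome 8 rose (11.8%) and 2 fell (2.94%), with a median of -0.01, and both shares were below those of all genes tested (17.7% and 12.5%). *Ddx10*, a helicase of pre-rRNA processing, had 51.7, 47.8 and 51.4 CPM in KO and 38.7, 34.5 and 41.9 CPM in WT (log2 fold change 0.39, adjusted p = 0.00912 by edgeR), and *Utp6*, of the small subunit processome, had 52.8, 51.8 and 52.9 CPM in KO and 66.0, 63.9 and 62.1 CPM in WT (log2 fold change -0.29, adjusted p = 0.00558 by edgeR). Of 31 subunits and factors of RNA polymerases I and III, which transcribe ribosomal RNA and 5S RNA, 2 rose (6.45%) and 4 fell (12.9%), with a median of 0.05, where 17.7% of all genes rose and 12.5% fell. *Polr3a*, the largest subunit of RNA polymerase III, had a log2 fold change of 0.26 (adjusted p = 0.0323 by edgeR), and *Polr3e* of -0.33 (adjusted p = 0.015). The call of *Polr3a* was lost without any 1 library but WT replicate 3 (adjusted p from 0.0514 to 0.114), and that of *Polr3e* without KO replicate 3, WT replicate 1 or WT replicate 3 (0.0530 to 0.0580). The falls depend on the scaling, since under marker scaling *Utp6* was at 0.095 and *Polr3e* at 0.053.

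Of 20 genes that control ribosome production with growth, 4 rose (20%) and 1 fell (5%), with a median of -0.06, against 17.7% and 12.5% of all genes tested. *Rptor*, the substrate-binding partner of mTOR, had 93.1, 86.9 and 97.2 CPM in KO and 62.6, 71.6 and 73.7 CPM in WT (log2 fold change 0.42, adjusted p = 0.00462 by edgeR). *Mtor* had 78.8, 76.1 and 83.2 CPM in KO and 65.2, 64.1 and 73.4 CPM in WT (log2 fold change 0.23, adjusted p = 0.0375 by edgeR). Both were higher in each KO library, but *Mtor* lost its call without KO replicate 1 or 3 or WT replicate 1 or 2 (adjusted p from 0.0665 to 0.128 by edgeR). *Trp53*, which is activated by unassembled ribosomal proteins, fell by 0.30 on the log2 scale (adjusted p = 0.015 by edgeR), a call lost without KO replicate 3 (0.0618) or WT replicate 1 (0.0530), and was at 0.084 under marker scaling. *Myc*, which drives ribosomal protein genes, and *Larp1*, which binds TOP transcripts, had log2 fold changes of -0.20 and -0.07 (adjusted p = 0.102 and 0.263 by edgeR).

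The ribosome of mitochondria is built from a separate set of nuclear genes. Of 77 mitochondrial ribosomal protein genes 9 rose (11.7%) and 5 fell (6.49%), with a median of 0.02, and both shares were below those of all genes tested (17.7% and 12.5%). *Mrps6* had 43.2, 35.9 and 40.9 CPM in KO and 29.2, 31.1 and 24.7 CPM in WT (log2 fold change 0.50, adjusted p = 0.00939 by edgeR), and *Mrps12* had 9.83, 11.1 and 12.6 CPM in KO and 18.2, 16.5 and 22.0 CPM in WT (log2 fold change -0.75, adjusted p = 0.00502 by edgeR). Their share of all counts was 0.232% ± 0.00544 (SD, n = 3) in KO and 0.221% ± 0.00538 (SD, n = 3) in WT, higher in KO without overlap (exact permutation p = 0.1), whereas the share of the cytosolic genes was lower.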

How the data were processed

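The authors mapped 150 bp paired-end reads of stranded libraries to mm10 with HISAT2, and the submitters' processing notes also name edgeR and GRCm38.p4; the counting tool and its strand setting are not given in the sources used here. The deposited counts are whole numbers per gene and library without normalization, and the deposited FPKM values are those counts per gene length and library total. Gene coordinates are those of the table, in mm10.

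The test was edgeR's quasi-likelihood test (edgeR 4.0.16, R 4.3.3, filterByExpr filter, TMM scaling, glmQLFit, glmQLFTest, two-sided, Benjamini-Hochberg over 14084 genes, adjusted p under 0.05), with all 6 libraries and no covariate. The standard error is the absolute log2 fold change divided by the square root of F. Alternatives used DESeq2 1.42.0, limma 3.58.1 on log2(FPKM + 1) or log2(FPKM + 0.1), other filters and scalings (in marker scaling, cardiomyocyte and macrophage markers have a median ratio of 1 in each library), a replicate block, each library left out, and a log2 fold change above 1 in addition. Shares were compared by exact two-sided permutation. On simulated KO and WT libraries with 14084 genes, edgeR recovered 2 of 50 genes changed by 0.3 on the log2 scale, 15 of 50 at 0.5, 42 of 50 at 1 and 50 of 50 at 2, with 5 false calls among 114. The simulation changed 200 genes, drawn at random from all genes tested. Copies were found with blastn 2.17.0 in GENCODE M21 transcripts, leaving out *Wdr89* and *Flt3l*, and motifs in RefSeq promoters of 300 bases. Figures were drawn with matplotlib 3.10.9.

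The genes, lists and tests were chosen with earlier results of these data known. Named are *Kdm5b*, the 10 largest falls and rises past the threshold, the 5 highest genes by FPKM, the P-stalk, genes with a second role, paralogs with their partners, core genes outside the name rule, and the largest rise and fall past the threshold of each list with *Myc*, *Mtor* and *Larp1*. *Rpl22*, the copies, *Kank3* and other overlapping genes were named after their values were seen. Precision is limited by 3 libraries per label, and a count of 0 covers counting error only. Some genes that the rule names are not reported here, and protein sequences were not analysed here.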

Additional observations from a re-analysis of the deposited data

How the results depend on the processing

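Most calls of the ribosomal protein genes rest on small changes, and TMM sets the level against which they fall. The simulation recovered few genes changed by 0.3, but it changed only 200 genes, whereas 4248 were called here. Its recovery therefore does not measure that of the ribosomal protein genes. Genes called lower were 31 in the reported fit, between 25 and 37 with other filters, other scalings apart from marker scaling, DESeq2 and limma, and 18 to 35 with a library left out (18 without KO replicate 3), and those called higher were 0 to 1 with a library left out. Of all genes in each fit, 6.69% (DESeq2) to 16.1% (upper quartile) were called lower in the former alternatives. With a library left out, 7.92% (without KO replicate 3) to 11.2% were called lower and 14.0% to 17.5% higher. Marker scaling gave 36 genes higher, 1 lower and a median of 0.18, with 8304 genes called over the table. *Rps28*, the only gene called higher, was lost with the upper quartile, DESeq2 and the replicate block (0 genes higher each). Requiring a log2 fold change above 1 left 0 genes higher, 0 lower and 882 called over the table. Chosen after seeing the data, the 61 genes without an overlapping gene gave 0 higher and 24 lower, the 46 without a counted copy 0 higher and 19 lower, and with copies added 2 were higher, *Rps18* was at 0.54 and *Rps27* at -0.18. *Rps4l* is among these 46 genes, although it was not searched for copies. By summed FPKM the share differed by -0.62 percentage points, and by counts by -0.22.

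Under marker scaling the log2 fold changes were 0.029 for *Rps18*, 0.043 for *Rpl3*, 0.050 for *Rpl30*, 0.070 for *Rpl35*, 0.18 for *Rplp1*, 0.37 for *Rpl8*, 0.22 for *Rpl4*, 0.33 for *Rplp0*, 0.20 for *Rplp2*, 0.17 for *Rpsa*, 0.21 for *Rps27a*, 0.37 for *Rpl5*, 0.16 for *Rps3*, 0.17 for *Rps19*, 0.27 for *Rpl10*, 0.084 for *Rpl39*, 0.15 for *Rps4x*, 0.16 for *Rps3a1*, 0.31 for *Larp1*, 0.20 for *Eef1a1*, 0.25 for *Eef2*, 0.18 for *Tpt1*, 0.13 for *Eif3f*, 0.095 for *Utp6*, 0.053 for *Polr3e*, 0.084 for *Trp53*, 0.27 for *Gm15500*, 0.19 for *Gm10275*, 0.20 for *Rps27rt* and 0.35 for *Rpl9-ps6*. The cause of these changes was not tested beyond the shift of all genes by 0.38.

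With the replicate number as a block 29 genes were lower and 0 higher, 28 of the falls being shared with the fit without it, and the median was -0.20. The numbers did not pair the libraries, since the deviations of same-numbered libraries correlated at 0.0090, 0.0094 and 0.032, although each KO library correlated best with the WT library of its own number.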
